A study of Rattus norvegicus with 6 samples.

Results

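The enzymes that carry acetyl-CoA units through mevalonate to squalene and squalene epoxide were described in liver RNA from 3 libraries of a high-fat diet group (HFD group) and 3 libraries of a group on the same diet given HTG (HTG group). Of the 32930 rows of the deposited table, 9 were taken by their gene symbol: Acat2, Hmgcs1, Mvk, Pmvk, Mvd, Idi1, Fdps, Fdft1 and Sqle, each found on 1 row. All 9 were among the 18455 genes with enough counts to be tested. HTG stands for Huazhuo Tiaozhi granule, a preparation of Chinese herbs given for dyslipidaemia. The labels give a high-fat diet and 12 weeks of intervention for both groups, with 0.5% CMC-Na, the vehicle, in the HFD group only. No genotype, strain, sex, age or dose is given in the labels, and the treatment field spells the preparation HCG where the titles spell it HTG. The labels name rats (Rattus norvegicus), the paper's sequencing methods name C57BL/6 J mice, and every deposited row carries a mouse Ensembl identifier, and the rows are described below under their mouse names. For its rat experiment the paper describes male Wistar rats and dosing by gavage. There the drugs, HTG among them, were also given in 0.5% CMC-Na. Dosing began after the first weeks on the diet, so it lasted less than the 12 weeks of diet. No group without the diet was among the libraries, so each level is set against animals that were all on it.

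Cholesterol and all other isoprenoids are built from acetyl-CoA through mevalonate, and the liver is a main site of this synthesis. The genes of the pathway share a controller: when sterols in the endoplasmic reticulum are low, SCAP carries SREBP-2 to the Golgi, where it is cut and released to switch on nearly every step, and when sterols are plentiful, INSIG proteins hold the complex back.

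The estimated counts of the libraries summed to between 50648778 (HTG replicate 3) and 90563477 (HTG replicate 2). Low values came in steps of about 4 counts, so a fragment was taken as worth 4 counts. Across genes, which are not independent replicates, log2 values of pairs of libraries correlated with r between 0.917 and 0.959. Levels are given as CPM (counts in 1000000 counts of a library, its total first scaled by edgeR's TMM method) or, where genes are set against each other, as FPKM, which also divides by transcript length. The smallest member count was 326 (Mvd, HFD replicate 2), or 82 fragments, with an exact 95% Poisson interval of 65.2 to 102 that covers counting error only, and the largest was 29105 (Fdps, HFD replicate 3). Markers of hepatocytes dominated every library, with a summed level of 75333 to 89108 CPM in the HFD group and 68204 to 70053 CPM in the HTG group over 5 markers. Most of this sum was Alb, and the markers differed in direction. Apoa2 was higher in every HTG library (2982 to 3954 CPM) than in any HFD library (1432 to 2318 CPM). Alb and Cps1 were lower in every HTG library, and the groups overlapped for Ttr and Cyp2e1. In such bulk tissue, fewer cells of a type and less RNA per cell cannot be told apart. The labels do not tie each library to an animal by name, so p-values measure the spread between these libraries.

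The 9 enzymes varied widely between libraries of the same group, the highest being 1.63 (Acat2, HTG group) to 23.2 (Sqle, HFD group) times the lowest in CPM. HFD replicate 3 had the highest level of every one of the 9, HTG replicate 3 the next highest, and HFD replicate 1 the next, while the other 3 libraries sat below in all 9. The fitted level was lower in the HTG group for all 9, by a log2 fold change of -1.36 (Idi1) to -0.05 (Hmgcs1), but no enzyme passed the test. Adjusted p-values (edgeR's quasi-likelihood test, adjusted by Benjamini-Hochberg) ran from 0.260 to 0.979, and the groups overlapped for all 9.

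**Figure D1:**
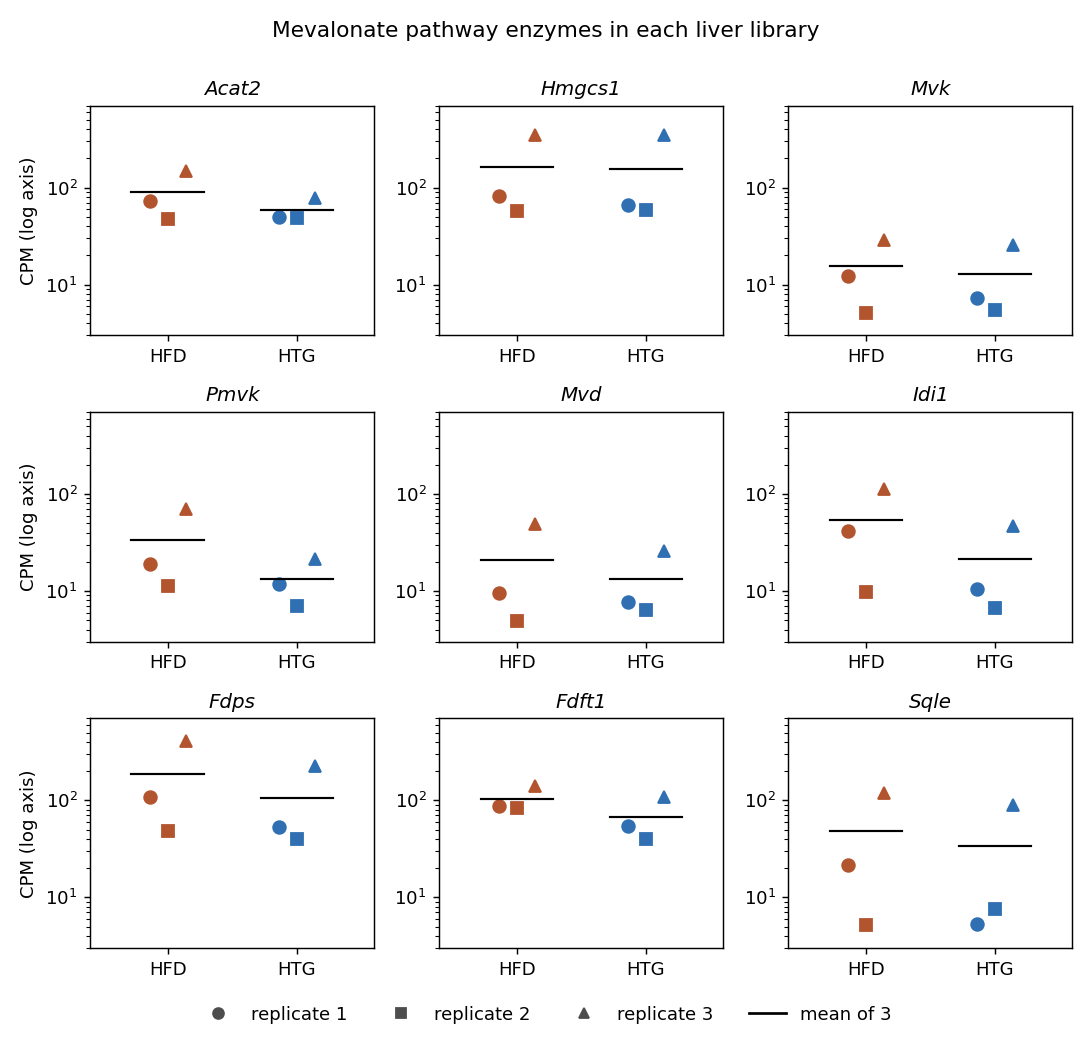
CPM of the 9 enzymes (log axis) in each HFD (brown) and HTG (blue) library, with the symbol giving the replicate and the bar the mean of 3. Replicate 3 is the highest point of its group in all 9 panels, and the groups overlap in each.

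The first steps condense acetyl-CoA. Acat2 (ENSMUSG00000023832, chromosome 17, 13161777 to 13179634, minus strand, coordinates here and below as the table lists them) encodes the cytosolic thiolase that joins acetyl-CoA units into acetoacetyl-CoA, not the sterol acyltransferase also known by that name. Its level was 73.7, 47.4 and 148 CPM in HFD replicates 1, 2 and 3. The HTG libraries had 49.7, 48.3 and 78.7 CPM. HTG replicates 1 and 2 lay just above the lowest HFD library, and HTG replicate 3 lay between the HFD libraries. The means were 89.6 ± 52.0 and 58.9 ± 17.2 CPM (SD, n = 3), and the fitted log2 fold change was -0.61 (SE 0.40, 95% interval -1.52 to 0.31, adjusted p = 0.388 in edgeR's quasi-likelihood test).

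Hmgcs1 (ENSMUSG00000093930, chromosome 13, 120151915 to 120169796, plus strand), the cytosolic HMG-CoA synthase, was the enzyme with the closest group means. It measured 81.3, 57.7 and 349 CPM in the HFD libraries. The HTG values were 65.9, 59.3 and 346 CPM. In each group, replicates 1 and 2 lay close together and replicate 3 stood several-fold above them, at nearly the same height in both groups. The highest library was 6.04 times the lowest in the HFD group and 5.83 times in the HTG group, while the fitted difference was -0.05 (SE 0.83, 95% interval -1.96 to 1.86, adjusted p = 0.979 in edgeR's quasi-likelihood test). That interval holds differences of several-fold in either direction.

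Mevalonate is then phosphorylated by Mvk and Pmvk and decarboxylated by Mvd, and these 3 genes had the lowest mean CPM of the 9 in each group. The means were 15.5 (Mvk) to 33.4 CPM (Pmvk) in the HFD group and 12.8 (Mvk) to 13.4 CPM (Pmvk) in the HTG group. Single libraries of Idi1 and Sqle also fell to such levels, down to 6.69 and 5.14 CPM. Mvk (chromosome 5, 114582330 to 114598652, plus strand) measured 12.2, 5.10 and 29.2 CPM in the HFD group and 7.30, 5.41 and 25.8 CPM in the HTG group. The replicate 3 libraries were the highest of both groups at like levels, and the fitted log2 fold change was -0.27 (SE 0.71, adjusted p = 0.845 in edgeR's quasi-likelihood test). Pmvk (chromosome 3, 89361848 to 89376320, plus strand) measured 18.9, 11.2 and 70.0 CPM in the HFD group. It was 11.8, 7.0 and 21.3 CPM in the HTG group. The highest Pmvk library was 6.22 times the lowest in the HFD group and 3.04 times in the HTG group, and HFD replicate 3 was 3.29 times HTG replicate 3, the widest such gap of the 9. Pmvk also had the smallest p-value of the 9, with a log2 fold change of -1.32 (SE 0.66, 95% interval -2.84 to 0.19), an unadjusted p of 0.0794 and an adjusted p of 0.260 in edgeR's quasi-likelihood test. Mvd (chromosome 8, 123160340 to 123170161, minus strand) measured 9.65, 4.89 and 48.6 CPM in the HFD group and 7.75, 6.32 and 26.0 CPM in the HTG group. The log2 fold change of Mvd was -0.66 (SE 0.84, adjusted p = 0.661 in edgeR's quasi-likelihood test), with both lower HTG libraries between the lower HFD libraries.

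Idi1 and Fdps turn the resulting isopentenyl diphosphate into farnesyl diphosphate. Idi1 (chromosome 13, 8935537 to 8942487, plus strand), the isomerase, measured 41.5, 9.70 and 113 CPM in the HFD group. Under HTG it measured 10.4, 6.69 and 46.9 CPM. Here HFD replicate 1 stood apart too, at about the level of HTG replicate 3, and the fitted log2 fold change was the lowest of the 9 at -1.36 (SE 0.91, 95% interval -3.45 to 0.73, adjusted p = 0.395 in edgeR's quasi-likelihood test). Fdps (chromosome 3, 89000895 to 89009266, minus strand), the farnesyl diphosphate synthase that nitrogen-containing bisphosphonates block, had the highest single level of the 9. It measured 108, 48.5 and 405 CPM in the HFD group and 53.1, 39.8 and 225 CPM in the HTG group. The HTG values all lay below the HFD library of the same rank, yet HTG replicate 3 was above HFD replicates 1 and 2, and the log2 fold change was -0.82 (SE 0.85, 95% interval -2.76 to 1.12, adjusted p = 0.582 in edgeR's quasi-likelihood test).

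Fdft1 and Sqle commit farnesyl diphosphate to sterols. By the SD of log2 CPM within groups they were the least (0.59) and the most (2.24) variable of the 9. Fdft1 (chromosome 14, 63382599 to 63417027, minus strand), squalene synthase, measured 86.7, 84.4 and 140 CPM in the HFD group. The HTG libraries measured 54.9, 40.1 and 108 CPM. HTG replicates 1 and 2 were below every HFD library, and HTG replicate 3 was above HFD replicates 1 and 2. The means were 104 ± 31.6 and 67.7 ± 35.8 CPM (SD, n = 3) and the log2 fold change was -0.62 (SE 0.37, 95% interval -1.48 to 0.24, adjusted p = 0.348 in edgeR's quasi-likelihood test). Sqle (chromosome 15, 59186926 to 59203041, plus strand), squalene epoxidase, the first oxygen-using step of sterol synthesis, measured 21.7, 5.14 and 119 CPM in the HFD group. The corresponding HTG values were 5.31, 7.50 and 89.1 CPM. The highest Sqle library was 23.2 times the lowest in the HFD group and 16.8 times in the HTG group, against 1.66 and 2.69 times for Fdft1. By this ratio Acat2 varied least in the HTG group, at 1.63 times. The log2 fold change of Sqle was -0.52 (SE 1.24, 95% interval -3.36 to 2.32, adjusted p = 0.829 in edgeR's quasi-likelihood test).

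Per transcript length, Fdps, Hmgcs1 and Acat2 had the highest HFD levels and Mvk and Sqle the lowest. Mean FPKM in the HFD group was 43.9 ± 45.5 for Fdps, 34.8 ± 35.3 for Hmgcs1 and 34.5 ± 21.0 for Acat2 (SD, n = 3). It was 24.5 ± 8.20 for Fdft1, 19.2 ± 18.7 for Pmvk, 15.4 ± 15.0 for Idi1 and 11.2 ± 12.9 for Mvd. Sqle, at 8.70 ± 11 FPKM, and Mvk, at 5.69 ± 4.66 FPKM, came last. Neighbours in this order differed by less than the larger of their SDs. Mean FPKM in the HTG group was highest for Hmgcs1 (30.6 ± 30.2), Fdps (22.6 ± 20.8) and Acat2 (21.4 ± 4.76) and lowest for Sqle (5.41 ± 7.42) and Mvk (4.32 ± 3.53). The place of Sqle in this order differed between libraries: it was the lowest of the 9 in replicates 1 and 2 of both groups, down to 0.84 FPKM in HFD replicate 2, while in both replicate 3 libraries, at 21.33 and 13.97 FPKM, it was above Mvk. On the FPKM scale HFD replicate 1 was above HTG replicate 3 for Acat2 (29.05 against 26.91), Pmvk (11.06 against 10.8) and Idi1 (11.88 against 11.63), so the order of these libraries that held in CPM for all 9 held in FPKM for the other 6.

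**Figure D2:**
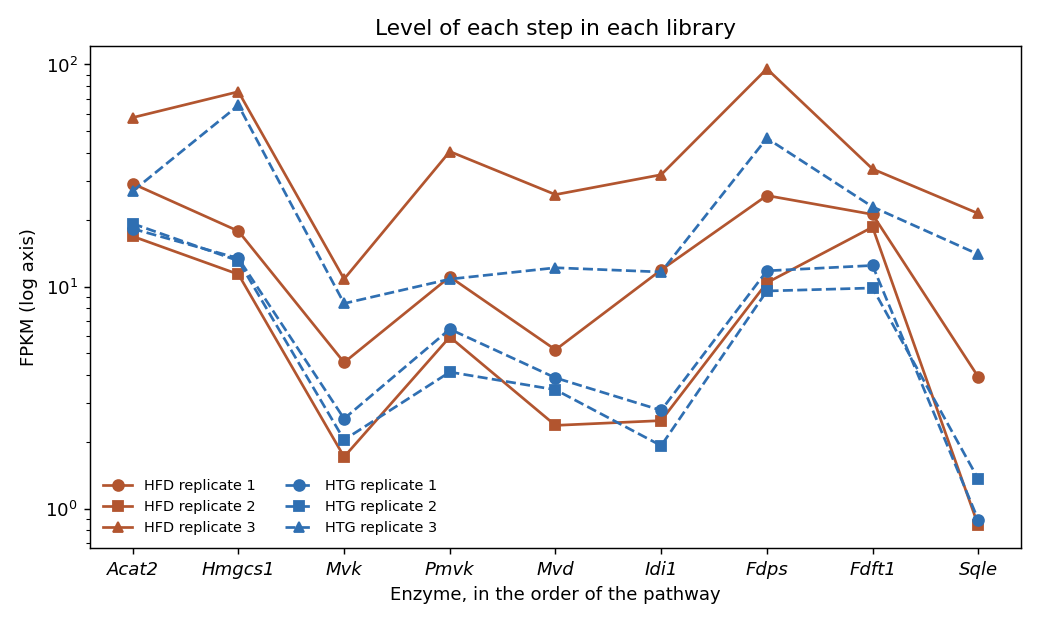
FPKM (log axis) of each enzyme in the order of the pathway, with a line for each of the 3 HFD (brown, solid) and 3 HTG (blue, dashed) libraries. HFD replicate 3 lies above the other 5 libraries at every enzyme, and the lines come closest at Fdft1 and Acat2.

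Against all genes, the 9 enzymes were set apart by their spread within groups and not by their calls. At an adjusted p under 0.05, edgeR called none of the 9, and 2 of 18455 genes (0.0108%). At an unadjusted p under 0.05 it called none of the 9, against 24.7% of genes, and with an absolute log2 fold change over 1 as well none, against 8.85%. DESeq2 also called none of the 9 at either threshold. None of the 9 had groups that did not overlap, against 32.1% of genes. The fitted value was lower in the HTG group for 9 of 9, against 48.4% of genes, and the median log2 fold change was -0.62 over the 9 and 0.03 over all genes tested. These 9 directions are not 9 separate observations, since the enzymes moved together across the same 6 libraries. The SD of log2 CPM within groups had a median of 1.40 over the 9 and of 0.37 over all genes, and 94.5% of genes had a smaller SD than the median enzyme. It was 2.24 for Sqle (99.5% of genes smaller), 1.63 for Idi1 (96.7%), 0.65 for Acat2 (75.0%) and 0.59 for Fdft1 (71.6%).

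Leaving out single libraries turned the fitted direction of 5 of the 9 enzymes. Replicate 3 was the highest of its group in both groups for 9 of 9 enzymes, against 13.9% of genes. Without HFD replicate 3, the median log2 fold change of the 9 was 0.43, and 5 of the 9 (Hmgcs1, Mvk, Mvd, Fdps and Sqle) had a higher fitted value in the HTG group, up to 1.33 for Sqle. Without HTG replicate 3 the median was -1.58, and 5 enzymes (Pmvk, Idi1, Fdps, Fdft1 and Sqle) had an unadjusted p under 0.05, as did 17.9% of genes. Without HFD replicate 2, 3 enzymes (Acat2, Pmvk and Idi1) had an unadjusted p under 0.05, as did 20.3% of genes. Without HTG replicate 1 Hmgcs1 had a higher fitted value in the HTG group, at 0.26, and without HTG replicate 2 Hmgcs1 (0.34) and Mvk (0.09) did. With both replicate 3 libraries left out, a comparison chosen after seeing the data, all 9 again had HTG values fitted below HFD values, the median was -0.68, and Idi1 and Fdft1 had an unadjusted p under 0.05, as did 14.0% of genes. No enzyme reached an adjusted p of 0.05 in any of these fits. The labels attach no date, batch or other property to the number 3, and what the 2 libraries share was not tested.

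**Figure D3:**
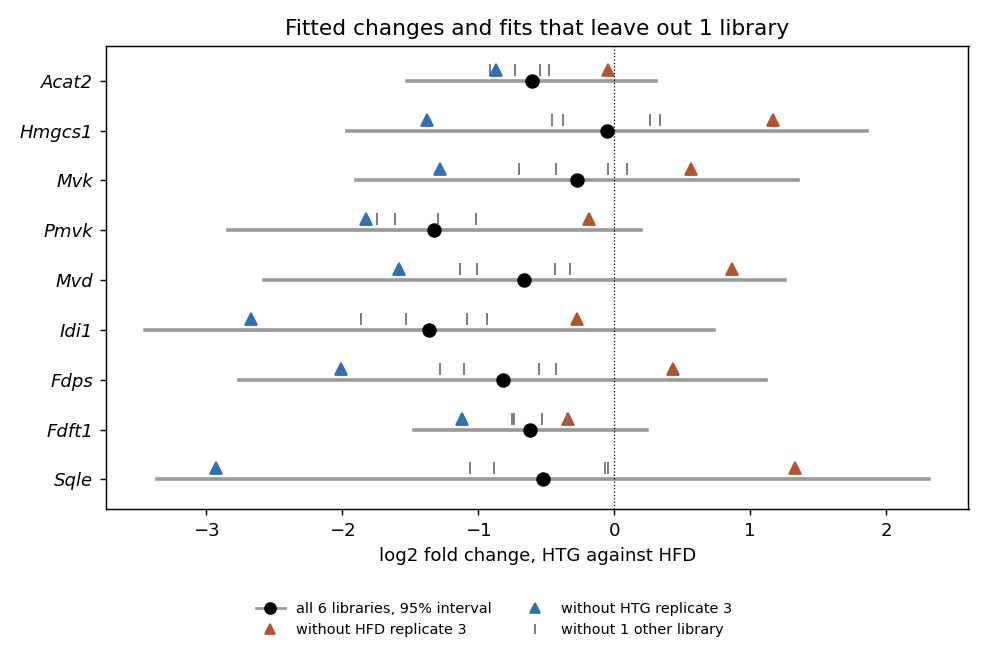
Log2 fold change of HTG against HFD for each enzyme from all 6 libraries (black point, grey 95% interval), with the fits without HFD replicate 3 (brown triangle), without HTG replicate 3 (blue triangle) and without 1 other library (ticks). The brown triangles lie right of the points and the blue ones left of them for all 9, and 5 brown triangles lie above 0.

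The 9 enzymes varied together from library to library. Over the 36 pairs of enzymes, Pearson's r of log2 CPM across the 6 libraries had a median of 0.94, a lowest value of 0.77 (Mvd with Fdft1) and a highest of 0.98 (Mvk with Fdps). These are descriptions over 6 points that share libraries and normalisation. The mean log2 CPM of the 9, each gene centred on its own mean over the 6 libraries, was 0.10, -0.96 and 1.77 in HFD replicates 1, 2 and 3. The HTG libraries had -0.83, -1.12 and 1.04. Fdps followed this mean most closely, at r = 0.9997, and Fdft1 least, at r = 0.87, the mean including both. Among genes outside the pathway lists with at least 50 counts on average, the most alike were Myh9 (non-muscle myosin heavy chain), the processed pseudogene Gm3571 and Slc10a7, each at r = 0.99, then the processed pseudogene Gm5873 and Fam118a, each at r = 0.98. The descriptions of these pseudogenes name no parent gene. Whether their counts hold reads of one of the 9 enzymes was not tested, so their likeness may not be separate from that of the 9. Myh9 had the same order at a smaller scale, with 128, 93.5 and 215 CPM in the HFD group and 106, 87.1 and 158 CPM in the HTG group. Of the summed marker levels, on the log2 scale, that of stellate cells (Lrat, Des, Col1a1 and Col3a1) followed the mean of the 9 most, at r = 0.69. It was 48.3, 26.6 and 77.3 CPM in the HFD group and 39.2, 48.8 and 42.2 CPM in the HTG group, so HFD replicate 3 was highest and HFD replicate 2 lowest, while HTG replicate 3 did not stand out. Lrat, Col1a1 and Col3a1 were each highest in HFD replicate 3, but Des was not. Des measured 5.06, 3.13 and 3.87 CPM in the HFD group and 6.02, 6.50 and 6.85 CPM in the HTG group. For the other 6 marker lists r lay between -0.26 and 0.33. Every marker had counts in at least 1 library, and the part of other cells in the enzymes' levels was not tested.

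At the promoters of sterol genes SREBP-2 is known to act with NF-Y, which binds the CCAAT box, and with Sp1, which binds GC boxes such as GGGCGG. The sequences here are of rat, the species of the labels, from RefSeq (GRCr8), and 6 of the 9 genes matched: Acat2, Hmgcs1, Mvk, Mvd, Idi1 and Fdps. In the 250 bases before the annotated start, searched on both strands, CCAAT was found in 5 of the 6 (all but Acat2), against 34% of 33469 promoters. It occurred 5 times in Mvk, a count of 3 or more being found in 2.52% of promoters, and 2 times each in Hmgcs1, Idi1 and Fdps. GGGCGG was in 5 of the 6 (all but Idi1), against 30.5%, and TCACNCCAC, a form of the sterol regulatory element, in 0 of the 6, against 0.974%. Matches describe letters in these windows and not binding. Hmgcs1, Mvk and Fdps are printed 5′ to 3′ on the gene's strand, since they are the enzyme with the closest group means, the one with the most CCAAT boxes and the one nearest the common pattern. Capitals mark CCAAT or its reverse complement ATTGG. They lie at chr2:53382054-53382303 (plus strand), chr12:47819504-47819753 (minus strand) and chr2:176804817-176805066 (minus strand).
Hmgcs1: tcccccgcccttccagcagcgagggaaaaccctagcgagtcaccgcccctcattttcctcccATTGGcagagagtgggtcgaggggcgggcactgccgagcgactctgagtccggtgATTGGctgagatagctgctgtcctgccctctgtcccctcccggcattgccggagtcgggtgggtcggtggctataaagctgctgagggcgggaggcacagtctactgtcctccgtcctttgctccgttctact
Mvk: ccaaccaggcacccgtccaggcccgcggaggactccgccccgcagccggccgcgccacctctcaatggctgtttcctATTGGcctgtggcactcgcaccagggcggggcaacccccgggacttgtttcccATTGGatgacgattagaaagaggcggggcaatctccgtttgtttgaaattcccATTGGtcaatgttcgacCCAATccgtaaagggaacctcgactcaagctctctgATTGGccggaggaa
Fdps: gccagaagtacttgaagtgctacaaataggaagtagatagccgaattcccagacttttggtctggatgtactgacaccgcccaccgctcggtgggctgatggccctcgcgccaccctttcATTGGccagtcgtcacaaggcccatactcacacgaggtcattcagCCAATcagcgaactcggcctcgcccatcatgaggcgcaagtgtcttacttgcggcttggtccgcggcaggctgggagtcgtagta

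The 39 other pathway genes, in 5 lists, were all tested, and none had an adjusted p under 0.05. At an unadjusted p under 0.05, 11 were lower and 2 higher in the HTG group, 13 of 39 against the 24.7% of all genes, and 33 of 39 had a lower fitted value against 48.4%. Their median log2 fold change was -0.39. The 13 became 6 of 39 without HTG replicate 2, where 16.2% of all genes had such a p, and 4 of 39 with both replicate 3 libraries left out, where 14.0% did. Neither share of the 39 was above that of all genes in the same fit. Of these 39, 3 also had an absolute log2 fold change over 1 (8.85% of all genes), 13 had groups that did not overlap (32.1%) and 19 had replicate 3 highest in both groups (13.9%).

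The late sterol steps, here from squalene epoxide (Lss) to cholesterol, were the group most like the 9. Replicate 3 was highest in both groups for 10 of 11 (13.9% of all genes), and all 11 were fitted lower under HTG (48.4%). At an unadjusted p under 0.05 there were 2, both lower, against 24.7% of all genes. Their mean relative level was 0.13, -0.59 and 1.37 (log2 CPM) in HFD replicates 1, 2 and 3 and -0.65, -0.85 and 0.58 in the HTG group. Hsd17b7, a sterol ketoreductase of the same stretch, measured 23.0, 46.9 and 77.3 CPM in the HFD group and 16.9, 11.7 and 23.5 CPM in the HTG group. The log2 fold change of Hsd17b7 was -1.5 (SE 0.43, adjusted p = 0.0876 in edgeR's quasi-likelihood test), and 1 HTG library reached just above the lowest HFD library.

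The genes of SREBP control and LDL uptake followed the 9 less closely. The 3 of 10 with an unadjusted p under 0.05, against 24.7% of all genes, were all lower in the HTG group. Insig2, which holds SCAP and SREBP in the endoplasmic reticulum, measured 51.3, 179 and 121 CPM in the HFD group and 68.9, 32.1 and 46.5 CPM in the HTG group. Its HFD peak was in replicate 2, the library lowest in the 9 enzymes of that group, but over the 6 libraries it had r = 0.13 with their mean. The log2 fold change of Insig2 was -1.25 (SE 0.45, adjusted p = 0.135 in edgeR's quasi-likelihood test). Insig1, the other INSIG gene, picked out after its values were seen, followed the 9 more closely, at r = 0.89. It measured 161, 65.6 and 445 CPM in the HFD group and 116, 128 and 192 CPM in the HTG group. Scap, the SREBP escort, measured 78.4, 87.9 and 146 CPM in the HFD group and 61.4, 67.9 and 67.6 CPM in the HTG group, without overlap (log2 fold change -0.66, SE 0.25, adjusted p = 0.149 in edgeR's quasi-likelihood test). Such groups without overlap were found for 32.1% of all genes. The SREBP genes themselves, picked out after their values were seen, differed in likeness to the 9: r with their mean was 0.97 for Srebf2, the sterol regulator, and 0.21 for Srebf1, the regulator of fatty acid synthesis.

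The isoprenoid branches, which draw on farnesyl diphosphate for ubiquinone, dolichol and protein prenylation, had a mean relative level between -0.13 and 0.20 (log2 CPM) in every library, a mean over genes that differed in direction. Of these 10 genes, 3 were lower and 2 higher at an unadjusted p under 0.05, which 24.7% of all genes had. Pdss2, a subunit of the enzyme that makes the ubiquinone side chain, measured 7.65, 7.08 and 8.19 CPM in the HFD group and 5.63, 4.35 and 3.67 CPM in the HTG group (log2 fold change -0.75, adjusted p = 0.107 in edgeR's quasi-likelihood test). Its groups did not overlap, as for 32.1% of all genes, while those of all 9 enzymes did.

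The ubiquitin ligases that act on sterol synthesis enzymes did not follow the library pattern of the 9. Of these, 3 of 4 were lower in the HTG group at an unadjusted p under 0.05, which 24.7% of all genes had. Marchf6, the ligase of squalene epoxidase, measured 92.5, 124 and 80.8 CPM in the HFD group and 68.4, 41.6 and 48.7 CPM in the HTG group (log2 fold change -0.91, SE 0.25, adjusted p = 0.0820 in edgeR's quasi-likelihood test). Its groups did not overlap (32.1% of all genes), its replicate 3 was highest in neither group, and it had r = -0.01 with the mean of the 9.

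**Figure D4:**
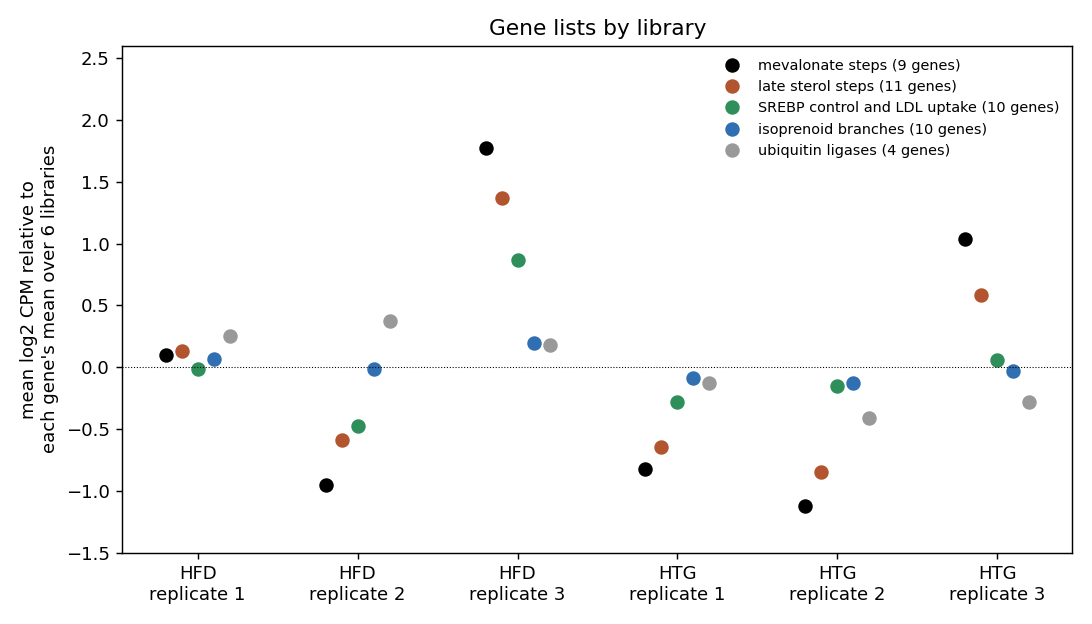
Mean log2 CPM of each gene list in each library, relative to each gene's mean over the 6 libraries, for the 9 mevalonate enzymes (black) and 4 of the 5 lists of other pathway genes. The 9 enzymes and the late sterol steps are highest in replicate 3 of both groups (1.77 and 1.04, and 1.37 and 0.58), while the mean of the isoprenoid branches lies between -0.13 and 0.20.

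Counts of some members share sequence or position with other rows, and while the paper describes libraries that mark the strand, whether the counting used it is not given in the sources used here. Fdft1 shares 774 bases with Ctsb (cathepsin B), a gene on the opposite strand with 25481 to 74545 counts per library, so its counts are uncertain to the extent that the counting did not use strand. The lowest Ctsb count, 25481, was in HTG replicate 3, the library with the smallest total (50648778 counts), and these counts are not scaled to the totals. Whether reads of Ctsb entered the counts of Fdft1 was not tested. The rows that overlap Hmgcs1 (Gm48342) and Fdps (Gm22935) had at most 10 counts in any library, and the one that overlaps Idi1 (Gm48574) had 0 in every library. The pseudogene Idi1-ps1 had 16 to 345 counts, at most 5.66% of Idi1 in the same library, and Idi1-ps2 had 43 to 108, at most 16.5%, and reads may have been split between them and Idi1. Idi1-ps5 had at most 4 counts, and Idi2 had 0 in every library. Pseudogenes were looked for by symbol and description only, so copies not named after an enzyme would be missed. Acat3, a near copy that lies beside Acat2 on chromosome 17, measured 151 to 256 CPM. It had r = 0.35 with the mean of the 9 against 0.96 for Acat2, but that mean includes Acat2 and not Acat3.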

How the data were processed

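Liver RNA from 3 HFD and 3 HTG libraries was analysed, grouped by title and treatment label. The authors deposited estimated counts as whole numbers, with no scaling between libraries, and FPKM values, scaled to transcript length and library fragments. The submitters' processing notes name HISAT2, StringTie, SAMtools and mRatBN7.2, a rat build, while the rows carry mouse identifiers, so the build of the coordinates is uncertain. The paper describes strand-marked (dUTP) libraries, and the strand setting of the counting is not given in the sources used here.

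Estimated counts were compared with edgeR 4.0.16 in R 4.3.3 (filterByExpr, TMM, quasi-likelihood test, group as the only term) over all genes, with Benjamini-Hochberg adjustment. Log2 CPM used a prior count of 2. The members and lists were chosen with earlier results of these data known. Named genes were the 9 enzymes, the 2 genes of smallest p in each pathway list (some named by the rule are not reported here), the 5 most alike genes, and overlapping or near-copy rows. Alternatives were DESeq2 1.42.0, other filters and scalings, a replicate block, counts divided by 4, limma 3.58.1 on log2(FPKM + 0.1) and log2(FPKM + 1), keeping genes whose mean FPKM reached 1, and each library left out. The scripts were tested on simulated data. The table of RefSeq promoters is of rat and was used for sequences only.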

Additional observations from a re-analysis of the deposited data

How the results depend on the processing

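Each group had 3 libraries, and no member count was below 326. Of 144 values of the 9 enzymes under other settings, 136 kept their direction and their side of an adjusted p of 0.05, 8 changed direction, and none reached that threshold (lowest adjusted p 0.143). With 1 library left out, the log2 fold change ran from -1.38 to 1.17 for Hmgcs1, -1.28 to 0.56 for Mvk, -1.58 to 0.87 for Mvd, -2.01 to 0.43 for Fdps and -2.93 to 1.33 for Sqle, lowest without HTG replicate 3 and highest without HFD replicate 3. The median of the 9 ran from -1.58 to 0.43, the number of the 9 at an unadjusted p under 0.05 from 0 to 5, and that of the 39 other pathway genes from 6 to 15. With both replicate 3 libraries left out, chosen after seeing the data, these numbers were 2 and 4. Without a filter on low counts 1 enzyme (Pmvk) had such a p, as did 17.2% of all genes. With the replicate block 4 did (Pmvk, Idi1, Fdps and Fdft1), against 21.0% of all genes, and none after adjustment. The labels give same-numbered libraries nothing in common but the number, so they were not taken as pairs. Their deviations from the group means correlated at -0.08, -0.07 and 0.10 for numbers 1, 2 and 3. For differently numbered libraries r ran from -0.12 (HFD replicate 3 with HTG replicate 1) to 0.18 (HFD replicate 2 with HTG replicate 1). Genes called at an adjusted p under 0.05 numbered 2 with edgeR, 0 with the block, 162 without a filter, 684 with at least 10 counts in every library, 822 with counts divided by 4, 878 and 884 with limma on FPKM and 2089 with DESeq2, and none of the 9 was among them. The cause was not tested.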
